A study of Mus musculus with 18 samples.

Results

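The genes described here encode the proteasome of sorted endothelial cells (ECs), apart from the 3 inducible catalytic subunits of the immunoproteasome (Psmb8, Psmb9 and Psmb10). They are the rows of the deposited expression table whose symbol begins with Psm, followed by one of the letters a to g and a digit, which gave 44 of the 16248 listed genes. By role they comprise 7 alpha and 7 beta subunits of the 20S core, 6 ATPases and 11 non-ATPase subunits of the 19S cap, 6 assembly chaperones, the activator pair Psme1 and Psme2, the activators Psme3 and Psme4, the inhibitor Psmf1, the thymic subunit Psmb11, and Psmc3ip, a gene named for binding Psmc3 that is no subunit. Of these, 43 passed the filter on low values and were tested. Psmb11 was the exception, at 0.0193 to 0.307 FPKM, a read level corrected for gene length and scaled per library, over the 18 libraries. Psma8, Psmd10, Psme2b and 4 pseudogenes that the same pattern takes were not analysed here.

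ECs were sorted as viable CD45-/CD31+ cells from female FVB mice and profiled by bulk RNA-seq in 6 groups of 3 libraries. The tissues were the normal mammary fat pad of wild type mice, spontaneous tumours of MMTV-PyMT mice, in which the MMTV promoter drives the polyoma middle T oncogene in mammary epithelium, and implanted tumours grown from cultured MMTV-PyMT tumour cells placed in the fat pad of FVB females. Each tissue was injected with PBS or with cGAMP, a cyclic dinucleotide that activates the innate sensor STING, and ECs were collected 3 hr later, so all 18 libraries share that time point and every cGAMP group has a PBS group of the same tissue. The 2 tumour models differ in more than the vessel: one arises in a transgenic host over time and the other is engrafted into a wild type host. The libraries held 9170910 to 12178526 recovered reads, and 13983 genes were tested. Endothelial markers (8 of 8 listed, among them Pecam1, Cdh5 and Kdr) summed to 633 to 1664 FPKM per library. Under PBS these sums were 954 to 1093 in normal, 633 to 794 in MMTV-PyMT and 965 to 1225 in implanted libraries, so that the MMTV-PyMT libraries lay below the rest. Genes of epithelium, fibroblasts and mural cells, leukocytes and red cells were also measured in all groups. No value of any of the 16248 listed genes was 0, so this alone does not show which cells were present. The 4 adipocyte genes looked for were not among the listed genes. In bulk libraries, fewer cells of a type and less RNA per cell cannot be told apart.

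The proteasome degrades proteins that carry ubiquitin chains. The alpha subunits form the outer rings of the 20S barrel and hold its gate shut, while the beta rings inside carry the 3 proteolytic sites on Psmb5, Psmb6 and Psmb7. The 19S cap binds ubiquitin, removes it, and unfolds the substrate with a ring of ATPases. Psme1 and Psme2 together form PA28, a ring that opens the 20S gate without ATP and is known as an interferon-induced partner of the immunoproteasome in antigen processing. Under interferon, Psmb8, Psmb9 and Psmb10 take the places of Psmb5, Psmb6 and Psmb7 in newly made particles.

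In the 31 core subunits of the 20S and 19S particles, the FPKM as deposited followed the tissue first. The lowest group mean was that of normal PBS ECs for 25 of the 31 and of normal cGAMP ECs for 5 more, the exception being Psmc6, which was lowest in implanted cGAMP ECs. The highest mean was that of implanted cGAMP ECs for 19, of MMTV-PyMT PBS ECs for 6, of implanted PBS ECs for 4 and of MMTV-PyMT cGAMP ECs for 2. These ranks rest on how the deposited FPKM were scaled per library and were not repeated under other scalings. Scaled by total reads, 5 members apart from Psme1 and Psme2 were higher and 18 lower with cGAMP in implanted ECs, so the ranks of that group could change. The span was modest: the highest group mean was 1.28 times the lowest for Psma6 and Psmc2 and 2.61 times for Psma5, with a median of 1.69 over the core subunits. These genes were abundant, between the 81.6 and 97.2 percentiles of mean FPKM over all listed genes, with 70 to 2940 reads per gene and library. Their median coefficient of variation within a group was 6.78%, against 8.74% for the 6910 genes of at least 5 FPKM on average. That set was not matched to the core for level, so the 2 values do not show that these genes vary less.

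**Figure D1:**
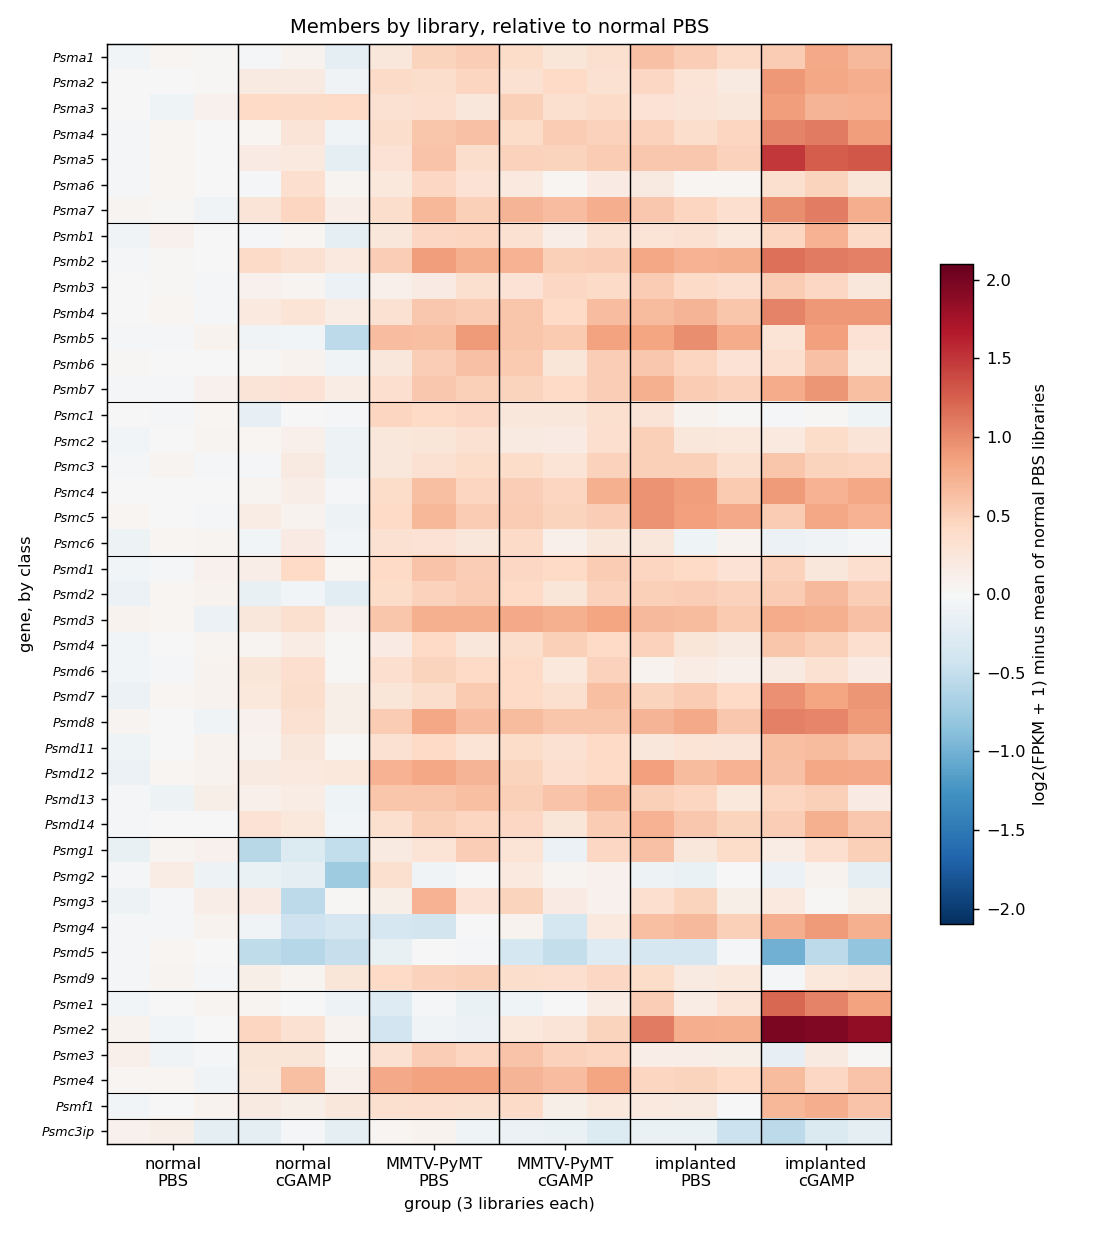
Heat map of the 43 members that were tested, 1 row per gene ordered by class and 1 column per library (3 per group). Colour is log2(FPKM + 1) minus the mean of the 3 normal PBS libraries. The core subunits are mostly above the normal PBS level in all 12 tumour libraries, and Psma5, Psme1 and Psme2 stand highest in the 3 implanted cGAMP libraries.

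The first question was whether libraries of tumour ECs held more proteasome mRNA than those of the normal fat pad without cGAMP. They did in both models, as a level in the library. Epithelial genes summed to means of 530 FPKM in normal PBS, 945 in MMTV-PyMT PBS and 502 in implanted PBS libraries. The part of other cells in the difference was not tested. In MMTV-PyMT PBS ECs, 30 of the 31 core subunits were higher than in normal PBS ECs and none was lower (Psmb3 did not pass). With the other classes, and leaving Psme1 and Psme2 aside, 34 of 41 tested members were higher and 0 lower in limma's test at an adjusted p under 0.05, where 29.8% of all tested genes were higher and 26.6% were lower. In implanted PBS ECs, 27 of the 31 core subunits and 31 of the 41 members were higher and 0 lower, against 25.0% of all tested genes higher and 23.6% lower. The exceptions in the core were Psma6, Psmc1, Psmc6 and Psmd6. The median log2 change over the 41 members was 0.43 in both models, while the median of all tested genes was 0.016 for MMTV-PyMT and 0.01 for implanted ECs. Both comparisons use the same 3 normal PBS libraries. A change here is the difference between group means of log2(FPKM + 1), tested by limma's linear model over all 18 libraries with Benjamini-Hochberg adjustment over all tested genes, and its p-value measures only the spread between these libraries. Summed over a class, the 19S ATPases reached 132 ± 1.78 FPKM (SD, n = 3) in normal PBS ECs, 177 ± 6.8 in MMTV-PyMT PBS ECs and 186 ± 15.2 in implanted PBS ECs. The alpha subunits summed to 174 ± 3.12, 232 ± 17.0 and 221 ± 11.4 FPKM in the same order.

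Psmd12, a non-ATPase subunit of the 19S lid, had the largest difference of the core in MMTV-PyMT ECs. It was measured at 11.7, 13.2 and 13.6 FPKM in normal PBS libraries, at 22.0, 23.2 and 21.7 in MMTV-PyMT PBS libraries and at 24.0, 20.9 and 21.9 in implanted PBS libraries. Every tumour library was above every normal one, which for MMTV-PyMT ECs follows from showing called members without overlap. The log2 change was 0.75 (SE 0.07) in both models, with adjusted p = 6.29e-07 for MMTV-PyMT and 6.76e-07 for implanted ECs in limma.

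Psme4 encodes PA200, a large nuclear activator that caps the 20S barrel. Its levels were 13.8, 13.8 and 12.8 FPKM in normal PBS libraries and 24.2, 25.0 and 24.9 in MMTV-PyMT PBS libraries. This was the largest difference of all members in MMTV-PyMT ECs (log2 change 0.83, SE 0.11, adjusted p = 8.35e-06, limma). In implanted PBS libraries Psme4 stood at 18.8, 18.9 and 18.4 FPKM, between the other tissues and apart from both, and was also higher than in normal ECs (0.44, SE 0.11, adjusted p = 0.00259). Psme3, which forms the nuclear PA28-gamma ring, was measured at 19.8, 17.4 and 18 FPKM in normal PBS, 23.3, 26.6 and 25.6 in MMTV-PyMT PBS and 20.4, 20.3 and 20.1 in implanted PBS libraries. It was higher in MMTV-PyMT than in normal ECs (0.43, SE 0.09, adjusted p = 0.000849), while the difference for implanted ECs was 0.13 (adjusted p = 0.246, limma).

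Psmc5, an ATPase of the 19S base, had, with Psmb5, the largest difference of the core in implanted ECs. Its values were 24.6, 23.8 and 23.6 FPKM in normal PBS libraries and 46.8, 44.3 and 42.3 in implanted PBS libraries, with a log2 change of 0.86 (SE 0.09, adjusted p = 1.24e-06, limma). The 3 catalytic beta subunits were higher in both tumours. Psmb5, the chymotrypsin-like site and the target of bortezomib, rose from 10.7, 10.7 and 11.6 FPKM in normal PBS libraries to 17.8, 17.6 and 21.2 in MMTV-PyMT and 20.4, 22.6 and 19.6 in implanted PBS libraries (log2 changes 0.72 and 0.86, SE 0.15 each, adjusted p = 0.00083 and 0.000212, limma). Psmb6, the caspase-like site, was at 26.1, 25.5 and 25.5 FPKM in normal PBS, 30.6, 37.1 and 39.9 in MMTV-PyMT PBS and 38.4, 35.4 and 31.8 in implanted PBS libraries. Psmb7, the trypsin-like site, was at 10.1, 10.1 and 11.1, then 13.6, 15.9 and 15.2, then 18.2, 15.6 and 15 FPKM. For all 3 genes the tumour libraries lay above the normal ones without overlap.

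Of the 6 assembly chaperones 1 was higher in MMTV-PyMT ECs (Psmd9, a chaperone of the ATPase ring) and 3 in implanted ECs (Psmd9, Psmg1 and Psmg4), with medians of 0.21 and 0.29, where 29.8% and 25.0% of all tested genes were higher. Psmf1, which encodes the proteasome-binding protein PI31, was at 3.22, 3.38 and 3.61 FPKM in normal PBS, 4.53, 4.63 and 4.56 in MMTV-PyMT PBS and 4.07, 4.03 and 3.41 in implanted PBS libraries, and passed in the comparison of MMTV-PyMT with normal ECs (0.34, SE 0.09, adjusted p = 0.00367, limma), while implanted ECs had a change of 0.13 (adjusted p = 0.224). Of 11 other parts and partners of the machine, such as Adrm1 and Usp14 of the 19S cap, 7 were higher in MMTV-PyMT and 6 in implanted ECs, and 0 lower in either. Among them Pomp, the chaperone that closes the 20S barrel, was at 7.49, 7.84 and 8.05 FPKM in normal PBS, 11.3, 13.8 and 12.9 in MMTV-PyMT PBS and 16.7, 16.4 and 15.5 in implanted PBS libraries. Of 13 ubiquitin and shuttle genes, 7 and 8 were higher and 0 and 1 lower. Nfe2l1, the transcription factor known for raising proteasome genes when the proteasome is impaired, was lower in both, with log2 changes of -0.41 (SE 0.07) and -0.29 (SE 0.07).

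Proliferation genes moved with the same contrast: 8 of 8 were higher in MMTV-PyMT and 7 of 8 in implanted PBS ECs (0 lower), with summed levels of 47.2 to 53.2 FPKM in normal PBS, 85.9 to 95.4 in MMTV-PyMT PBS and 77.6 to 95.4 in implanted PBS libraries. Over all tested genes, 29.8% were higher and 26.6% lower in MMTV-PyMT ECs, and 25.0% were higher and 23.6% lower in implanted ECs. Of 8 epithelial genes 4 were higher and 1 lower in MMTV-PyMT ECs, and 2 were higher and 2 lower in implanted ECs. The epithelial sums were 452 to 606 FPKM in normal PBS, 894 to 989 in MMTV-PyMT PBS and 409 to 580 in implanted PBS libraries. Epcam and Cdh1 were higher in both tumours (means of 60.1, 204 and 98.7 FPKM for Epcam and 28.5, 115 and 59.6 for Cdh1, in the same order), and Krt19 was lower in both (148, 58.7 and 60.9 FPKM). Of 8 fibroblast and mural genes, 5 were lower and 2 higher in MMTV-PyMT and 6 lower and 1 higher in implanted ECs, with sums of 825 to 936 FPKM in normal PBS, 309 to 361 in MMTV-PyMT PBS and 389 to 400 in implanted PBS libraries. Of the 7 leukocyte genes 3 and 2 were lower and 0 higher, with sums of 30.2 to 72, 17.9 to 29.0 and 28 to 67.7 FPKM. Of the 8 endothelial genes 5 were lower and 0 higher in MMTV-PyMT ECs, and 3 higher and 2 lower in implanted ECs. The part of these genes in the differences of the proteasome genes was not tested. Leaving out each library in turn gave 31 to 36 called members in MMTV-PyMT and 27 to 32 in implanted ECs. Calls were lost for Psma6 without MMTV-PyMT PBS library 2, Psmc6 without normal PBS library 1, Psmc2 without normal PBS library 1 or MMTV-PyMT PBS library 3, and Psmd4 without normal PBS library 1 or MMTV-PyMT PBS library 2 in MMTV-PyMT ECs (adjusted p up to 0.0793). In implanted ECs they were lost without implanted PBS library 1 for Psmd4, Psmb1, Psmg1 and Psmd9, without normal PBS library 1 for the last 3 of these, and also without normal PBS library 3 (Psmb1 and Psmd9), implanted PBS library 2 (Psmb1) or implanted PBS library 3 (Psmg1), with adjusted p up to 0.13. When the libraries were scaled by their total reads, the median change of all genes became -0.13 in implanted against normal ECs, 21 of 41 members were higher and 2 lower there, and the core median stayed 0.40 above that of all genes. In MMTV-PyMT ECs the counts under that scaling were again 34 and 0.

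**Figure D2:**
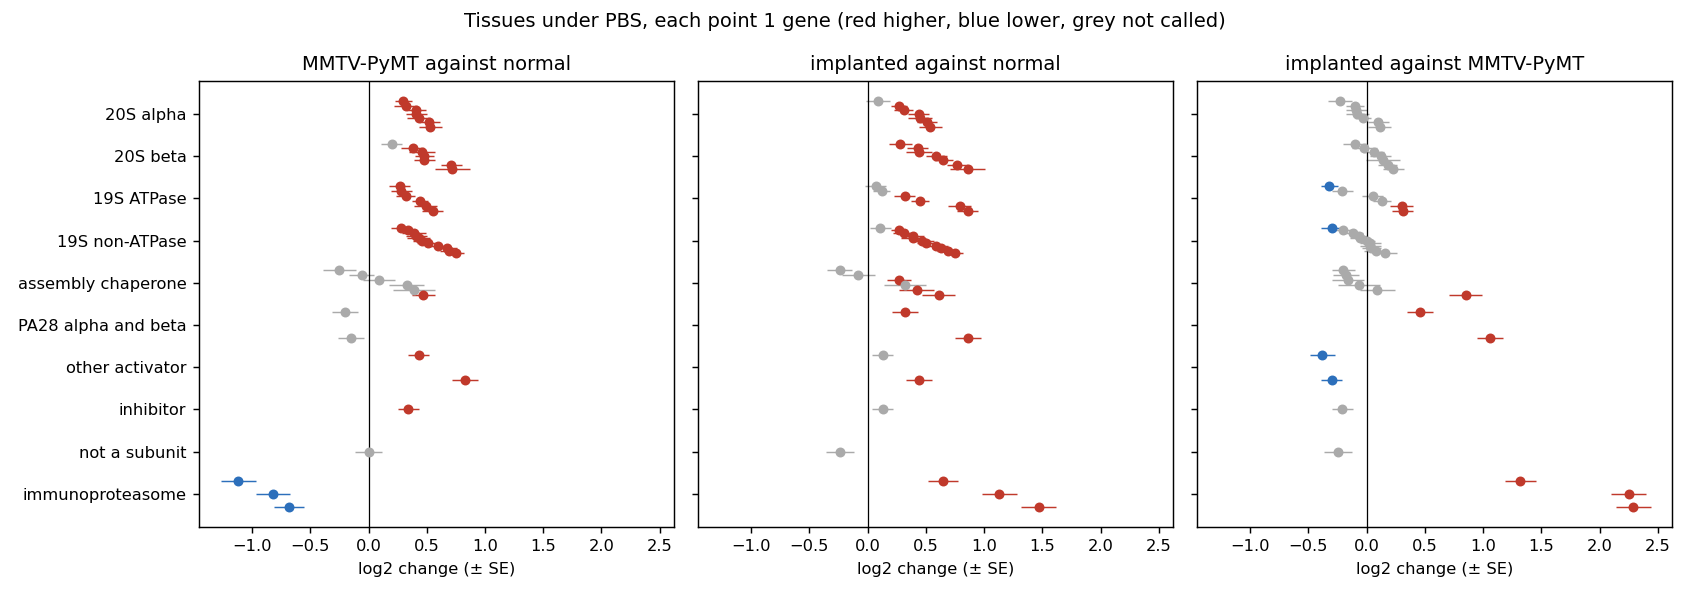
Differences between tissues under PBS for each tested member and the 3 immunoproteasome genes, by class. The x axis is the log2 change of FPKM + 1 with its standard error; red points were higher and blue points lower at an adjusted p under 0.05 and grey points did not pass. Nearly all core subunits lie right of 0 in both tumours against normal, and around 0 between the tumours, where PA28 and the immunoproteasome lie to the right.

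The second question was how the tumour models differ from each other. The core hardly did: of its 31 subunits, 2 were higher and 2 lower in implanted than in MMTV-PyMT PBS ECs, with a median of 0.03. Over the 41 members 3 were higher (Psmc4, Psmc5 and Psmg4) and 4 lower (Psmc1, Psmd6, Psme3 and Psme4), where 20.8% of all tested genes were higher and 24.6% lower, and the 5 members apart from Psmg4 and Psme4 changed by 0.30 to 0.32 in size. Psmg4, a chaperone of alpha ring assembly, was at 8.01, 7.81 and 10.5 FPKM in MMTV-PyMT PBS and 16.8, 17.5 and 15.3 in implanted PBS libraries (0.85, SE 0.14, adjusted p = 0.000136, limma), with as few as 44 reads in a library. Leaving out MMTV-PyMT PBS library 1 ended the calls of Psmc5 (adjusted p = 0.0573) and Psmc4, leaving out MMTV-PyMT PBS library 3 or implanted PBS library 1 or 2 ended that of Psmc4 (up to 0.124), and leaving out MMTV-PyMT PBS library 2 ended that of Psme3 (0.0602, limma). Psmc1, another ATPase of the base, stood at 40.4, 39.4 and 39.9 against 35.2, 30.7 and 29.7 FPKM (-0.32, SE 0.07, adjusted p = 0.0021), and Psme4 was lower by 0.38 (SE 0.11, adjusted p = 0.00774, limma). Under total-read scaling 1 member was higher and 18 were lower, with a median of all genes of -0.131 and the core at 0.00 relative to it.

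Both PA28 genes were higher in implanted than in MMTV-PyMT PBS ECs, where 20.8% of all tested genes were higher and 24.6% lower. Markers differed too: 5 of 8 endothelial genes were higher and 1 lower in implanted ECs, and 5 of 8 epithelial genes were lower and 0 higher. The part of these markers in the PA28 values was not tested. Psme1 (ENSMUSG00000022216.17, chr14:55578123-55581529, plus strand, GENCODE M21 on mm10) and Psme2 (ENSMUSG00000079197.10, chr14:55587441-55591113, minus strand) lie close together on opposite strands. Psme2 was measured at 24.2, 21.8 and 22.6 FPKM in normal PBS, 17.1, 21.6 and 20.8 in MMTV-PyMT PBS and 49.7, 39.5 and 38.9 in implanted PBS libraries. The implanted libraries lay above all others under PBS, with log2 changes of 0.86 (SE 0.11, adjusted p = 1.37e-05) against normal and 1.06 (SE 0.11, adjusted p = 3.5e-06) against MMTV-PyMT ECs in limma. Psme1 was at 34.3, 35.3 and 37.3 FPKM, then 29.3, 34.9 and 32.2, then 51.2, 39.7 and 43.7, with changes of 0.32 (SE 0.11, adjusted p = 0.0219) and 0.46 (SE 0.11, adjusted p = 0.00231, limma). The call of Psme1 against normal ECs was lost when normal PBS library 1, normal PBS library 2 or implanted PBS library 1 was left out (adjusted p up to 0.122), and under total-read scaling and quantile normalization. MMTV-PyMT and normal PBS ECs differed by -0.20 for Psme2 (adjusted p = 0.146) and -0.15 for Psme1 (adjusted p = 0.249, limma). Neither passed in that model.

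The 3 inducible catalytic subunits, which the rule leaves out, had their highest PBS levels in implanted ECs too. Within each library they were divided by the constitutive subunit each replaces. The FPKM fit the summed length of all annotated exons, 3381 bases for Psmb8 and 899 for Psmb5. Such ratios can be compared between groups, but their level does not show which of a pair has more transcripts. Psmb8 stood at 1.76 ± 0.0712 times Psmb5 in normal PBS ECs (SD, n = 3), 0.57 ± 0.115 times in MMTV-PyMT PBS ECs and 2.69 ± 0.366 times in implanted PBS ECs. With cGAMP the ratios were 3.08 ± 0.395, 1.4 ± 0.254 and 6.97 ± 1.26. Psmb10 over Psmb7 went from 0.907 ± 0.0508 to 1.92 ± 0.37 in MMTV-PyMT ECs and from 2.18 ± 0.128 to 6.13 ± 0.839 in implanted ECs. Psmb9 over Psmb6 was 0.0819 to 0.596 in the libraries of the other 5 groups and 1.45, 1.17 and 1.52 in the implanted cGAMP libraries.

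The third question was what cGAMP changed 3 hr after injection. In implanted ECs the alpha subunits and PA28 rose. Of the 7 alpha subunits, 6 were higher after cGAMP (Psma2 to Psma7), with a median log2 change of 0.51 over the class. Of the 7 beta subunits 2 were higher (Psmb2 and Psmb4, both without proteolytic activity), of the 6 ATPases 0, and of the 11 non-ATPase subunits 3 (Psmd7, Psmd8 and Psmd11, all of the lid). None of these 31 was lower. Over the 41 members 12 were higher and 1 lower, against 20.3% of all tested genes higher and 18.8% lower in this comparison. The medians were 0.19 for the beta subunits, -0.09 for the ATPases and 0.08 for the non-ATPase subunits, against -0.014 over all tested genes.

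Psma5, an alpha subunit, changed most of the members apart from PA28. It was at 44.2, 44.3 and 41.9 FPKM in implanted PBS and 84.4, 73.0 and 74.9 in implanted cGAMP libraries (log2 change 0.82, SE 0.10, adjusted p = 8.69e-06, limma). The other 5 alpha subunits that passed rose by 0.27 (Psma6) to 0.57 (Psma4), and Psma1 had a change of 0.16 and did not pass. In contrast the catalytic subunits did not pass in this tissue: Psmb5 was at 20.4, 22.6 and 19.6 FPKM with PBS and 13.7, 20.8 and 13.8 with cGAMP (-0.38, SE 0.15, adjusted p = 0.0613), Psmb6 at 38.4, 35.4 and 31.8 against 33.2, 39.8 and 30.1, and Psmb7 at 18.2, 15.6 and 15 against 18.5, 20.7 and 16.8 (limma). Their groups overlapped for all 3 genes. Psmb5, with a summed exon length of 899 bases, had 70 reads in its lowest library, the fewest of the core.

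Because ratios within a library do not depend on how libraries are scaled, class sums were also divided by one another. The alpha sum was 1.16, 1.18 and 1.23 times the ATPase sum in implanted PBS libraries and 1.82, 1.77 and 1.67 times in implanted cGAMP libraries. The same ratio was 1.26 to 1.35 in the 3 MMTV-PyMT PBS and 1.26 to 1.35 in the 3 MMTV-PyMT cGAMP libraries, and 1.31, 1.33 and 1.31 against 1.43, 1.5 and 1.4 in normal ECs. So the implanted cGAMP libraries had the highest ratios of all 18 and the implanted PBS libraries the lowest. Divided by the beta sum, the alpha sum was 1.01 ± 0.0232 in implanted PBS and 1.28 ± 0.0284 in implanted cGAMP ECs.

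**Figure D3:**
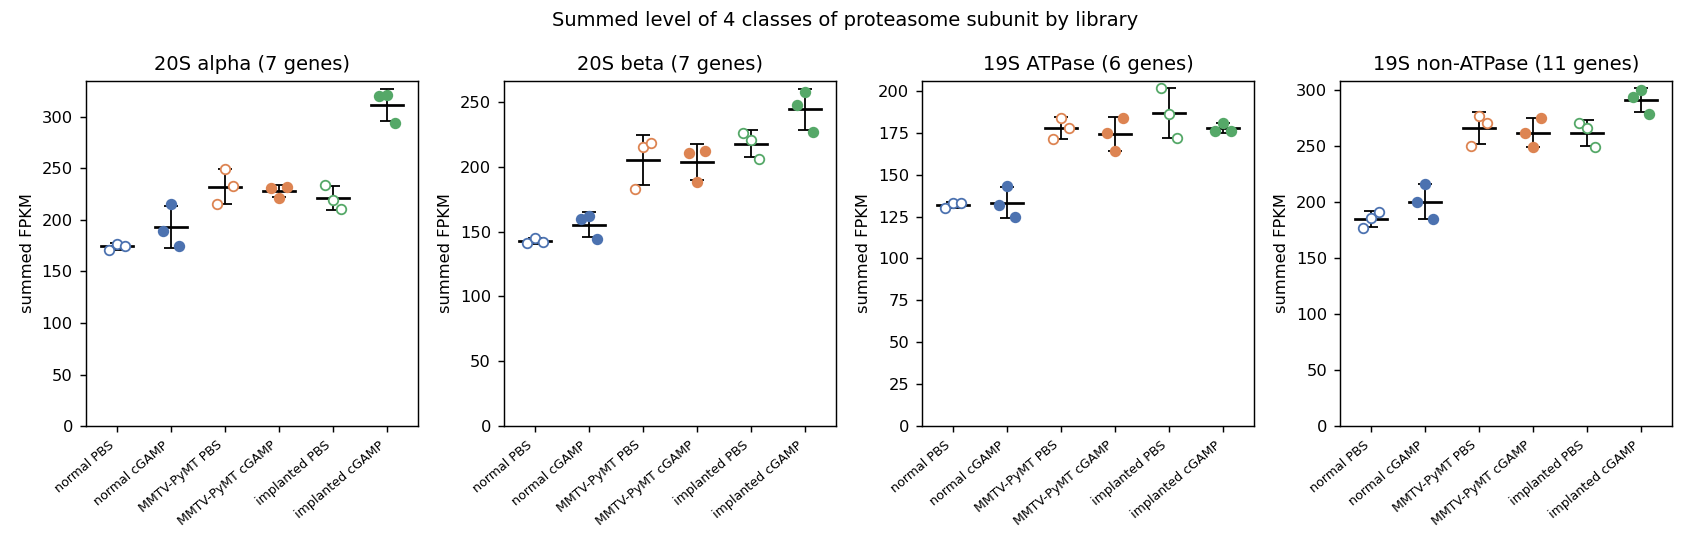
Summed FPKM of 4 classes of subunit by library; open points are PBS and filled points cGAMP, colours mark the tissue, and the bar and whiskers are the mean and SD of 3 libraries. The alpha sum goes from 221 to 312 FPKM with cGAMP in implanted ECs while the ATPase sum is 186 and 178 FPKM; under total-read scaling all 6 ATPases were lower with cGAMP.

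The scaling matters for these calls. The median change of all genes in implanted ECs was -0.248 when libraries were scaled by total reads, and under that scaling 5 of the 41 members were higher and 18 lower, the alpha median was 0.20 (4 of 7 higher, 0 lower) and all 6 ATPases were lower (median -0.39). Relative to the median of all genes, the alpha subunits then stood at 0.45, the beta subunits at 0.14, the non-ATPase subunits at 0.03 and the ATPases at -0.14, close to the 0.52, 0.20, 0.10 and -0.08 of the FPKM as deposited. Quantile normalization gave 5 of the 41 members higher and 13 lower, with the median of all genes at -0.087. Psma2, Psma3, Psma4, Psma5, Psmf1, Psme1 and Psme2 were higher and Psmd5 lower under both total-read scaling and quantile normalization. Psma6, Psmb4 and Psmd8 turned to log2 changes of -0.16 to 0 under these scalings, and Psmb2 to 0 under quantile normalization, none of them past the threshold. The calls of Psma7, Psmd7 and Psmd11 were also lost under both. Psma6 did not pass without implanted PBS library 2 or 3 or implanted cGAMP library 1 or 2 (adjusted p up to 0.128), nor Psmd8 without implanted PBS library 3 (0.0622).

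Psme2 was the member with the largest response of all. Its level was 49.7, 39.5 and 38.9 FPKM in implanted PBS and 93.1, 90.8 and 85.9 in implanted cGAMP libraries (1.07, SE 0.11, adjusted p = 1.97e-06, limma). Psme1 went from 51.2, 39.7 and 43.7 to 83.4, 74.6 and 64.6 FPKM (0.71, SE 0.11, adjusted p = 6.48e-05). Since the products pair in 1 ring, their ratio was compared between groups, its level resting on the exon lengths used. Psme2 stood at 0.951 ± 0.0555 times Psme1 in implanted PBS and 1.22 ± 0.107 times in implanted cGAMP ECs, against 0.643 ± 0.0545 and 0.617 ± 0.0315 in normal and MMTV-PyMT PBS ECs (SD, n = 3). The groups of implanted ECs did not overlap in that ratio.

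Psmf1 rose from 4.07, 4.03 and 3.41 to 6.15, 6.48 and 5.69 FPKM in implanted ECs (0.56, SE 0.09, adjusted p = 0.000107), whereas Psme3 (20.4, 20.3 and 20.1 against 16.2, 21 and 18.6 FPKM) and Psme4 (18.8, 18.9 and 18.4 against 21.9, 18.6 and 20.9) had changes of -0.12 and 0.12 that did not pass. The 1 member that fell was Psmd5, a chaperone that holds ATPases of the base until the cap is built: 5.09, 5.08 and 6.59 FPKM with PBS against 2.86, 4.31 and 3.35 with cGAMP (-0.55, SE 0.11, adjusted p = 0.00115, limma).

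Among the genes around the proteasome, Nfe2l1 was at 62.5, 60.3 and 57.5 FPKM in implanted PBS and 110, 105 and 115 in implanted cGAMP libraries (0.86, SE 0.07, adjusted p = 4.25e-08), and Ddi2, the protease that activates its product, went from 20, 21.7 and 20.8 to 13.4, 11.1 and 12.0 FPKM (-0.73, SE 0.09, adjusted p = 5.84e-06, limma). Of the 6 genes of that list 3 were higher and 1 lower, where 20.3% of all tested genes were higher and 18.8% lower. Of 11 other proteasome parts and partners 5 were higher (Akirin2, Ecpas, Pomp, Zfand2a and Zfand5) and Ube3c was lower. Adrm1 and Usp14 of the 19S cap, with means of 9.0 and 8.02 FPKM with PBS and 8.32 and 6.96 with cGAMP, were not among those called. Of 13 ubiquitin and shuttle genes 4 were higher, among them Uba1, the enzyme that activates ubiquitin, and 2 lower.

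Marker genes of other cells were compared in these libraries too, where 20.3% of all tested genes were higher and 18.8% lower with cGAMP. Implanted cGAMP library 2 had a summed level of 234 FPKM over the 7 leukocyte genes listed, against 57.7 and 47.7 in its replicates and 28 to 67.7 in implanted PBS libraries, and 1 of the 7 genes was higher (Cd68, 0.75, SE 0.26, adjusted p = 0.0302, limma). Without that library 13 of the 41 members were called, 11 higher and 2 lower. Fibroblast and mural genes were higher in 3 of 8 cases, with sums of 773, 757 and 350 FPKM against 389 to 400. Of 8 epithelial genes 1 was lower (Krt19, means of 60.9 and 25.6 FPKM), with sums of 264 to 575 against 409 to 580, and of 8 endothelial genes 1 was lower (Kdr), with sums of 1012 to 1664 against 965 to 1225. The part of these cells in the proteasome values was not tested.

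**Figure D4:**
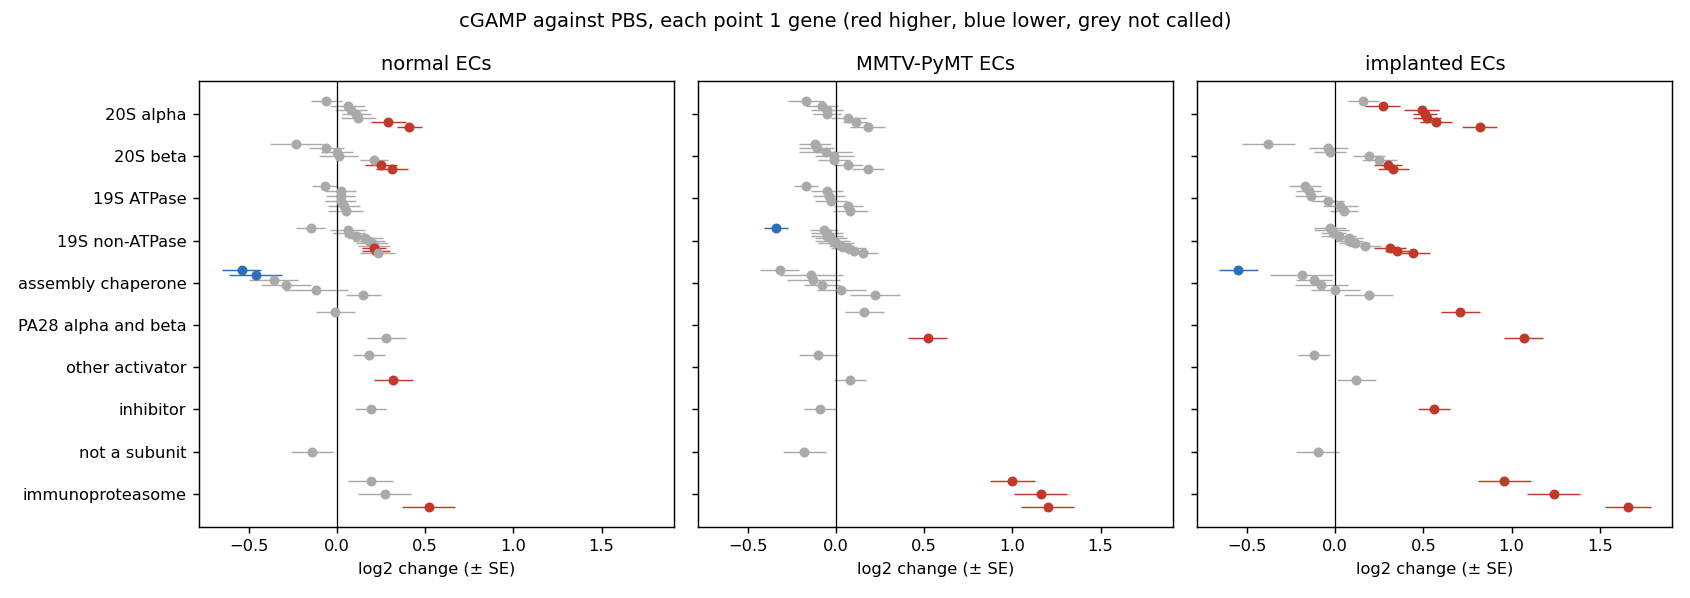
Changes with cGAMP in each tissue for every tested member and the 3 immunoproteasome genes, by class. The x axis is the log2 change of FPKM + 1 with its standard error; red points were higher, blue points lower and grey points did not pass. In implanted ECs 6 of the 7 alpha subunits are red and all 6 ATPases grey (under total-read scaling 4 alpha subunits were higher and all 6 ATPases lower), and in MMTV-PyMT ECs Psme2 and Psmd12 are the coloured members.

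To see what promoters accompany these patterns, those of 37 members (40 promoters) were taken from RefSeq (GRCm38.p6), each reaching from 250 bases before the start of transcription to 50 after it. Shown are Psma5 for the largest rise in the core, Psmb5 for a catalytic subunit that did not pass, and the PA28 pair; capitals mark the 1 match to the antioxidant response element core TGACNNNGC in Psmb5 and the 1 match to the interferon-stimulated response element core (GAAA, any 2 bases, GAAA), on the reverse strand, in Psme1. Psme2 has a second RefSeq promoter that is not shown.
Psma5, chr3:108256676-108256975, plus strand: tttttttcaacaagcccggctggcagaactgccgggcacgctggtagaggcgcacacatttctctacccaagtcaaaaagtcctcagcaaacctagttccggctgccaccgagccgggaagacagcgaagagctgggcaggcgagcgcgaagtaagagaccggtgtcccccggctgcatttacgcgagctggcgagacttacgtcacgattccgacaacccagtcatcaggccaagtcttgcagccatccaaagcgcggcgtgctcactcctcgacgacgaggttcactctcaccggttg
Psmb5, chr14:54617946-54618245, minus strand: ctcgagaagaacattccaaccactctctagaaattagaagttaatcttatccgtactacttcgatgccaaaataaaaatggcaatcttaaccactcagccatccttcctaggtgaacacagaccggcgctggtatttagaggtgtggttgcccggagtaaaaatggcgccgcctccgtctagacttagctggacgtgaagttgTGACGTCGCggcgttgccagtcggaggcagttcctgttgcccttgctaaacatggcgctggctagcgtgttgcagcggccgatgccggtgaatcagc
Psme1, chr14:55578244-55578543, plus strand: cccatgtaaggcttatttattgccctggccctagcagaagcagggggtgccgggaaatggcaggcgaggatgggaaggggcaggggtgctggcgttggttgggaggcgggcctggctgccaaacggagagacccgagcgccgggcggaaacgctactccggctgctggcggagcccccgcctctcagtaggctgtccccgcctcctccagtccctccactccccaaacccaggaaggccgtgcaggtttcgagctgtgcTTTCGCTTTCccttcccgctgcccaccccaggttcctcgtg
Psme2, chr14:55591052-55591351, minus strand: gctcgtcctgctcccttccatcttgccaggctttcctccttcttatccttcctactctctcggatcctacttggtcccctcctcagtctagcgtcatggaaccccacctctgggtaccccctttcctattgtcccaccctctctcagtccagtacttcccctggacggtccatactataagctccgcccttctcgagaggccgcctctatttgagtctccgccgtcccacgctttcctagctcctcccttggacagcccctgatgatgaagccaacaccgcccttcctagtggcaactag

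In Psmb5 the match spans bases -47 to -39 from the start of transcription and in Psme1 bases 10 to 19 after it, while Psma5 and the Psme2 promoter shown hold neither. Searched on both strands, TGACNNNGC was found in 15% of the member promoters (Psmb5, Psmb6, Psmc6, Psmd9, Psmd12 and Psme4) and 12.4% of the 32851 promoters of the same length. The GAAA pair was found in 12.5% (Psmb3, Psmd4, Psmd9, Psme1 and Psmg4) against 3.44%, TTCNNNGAA in 5.0% against 8.3%, CCAAT in 32.5% against 37.4%, and GGGCGG in 55% against 35.7%. These matches are descriptions of letters in a window. Of the 5 genes with the interferon-type match, Psme1 alone passed after cGAMP in any tissue, and of the 6 genes with the TGACNNNGC match Psmd12 and Psme4 did. Over all 43 tested members, 23 passed in no tissue after cGAMP. A link between a match and a call was not tested.

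In MMTV-PyMT ECs few proteasome genes changed at 3 hr. Of 41 members 0 were higher and 1 was lower, where 7.42% of all tested genes were higher and 4.57% lower, and over the 31 core subunits the median was -0.03 with changes from -0.34 to 0.18. The alpha sum was 215, 249 and 233 FPKM with PBS and 231, 221 and 232 with cGAMP, and the groups overlapped. The member that fell was Psmd12, from 22.0, 23.2 and 21.7 to 18, 16.7 and 17.5 FPKM (-0.34, SE 0.07, adjusted p = 0.0073, limma), back towards the normal PBS range but above all 6 normal libraries. Psme2 rose from 17.1, 21.6 and 20.8 to 26.7, 27.7 and 31.9 FPKM (0.52, SE 0.11, adjusted p = 0.0074), without overlap, and Psme1 was at 29.3, 34.9 and 32.2 against 33.3, 35.4 and 39.6 (0.16, SE 0.11, adjusted p = 0.353, limma). Both calls were kept in each of 28 alternative fits (other settings and left-out libraries). The 3 catalytic subunits changed by -0.06 (Psmb5) to -0.01 (Psmb6 and Psmb7), while 3 of 3 inducible subunits were higher (log2 changes of 1.0 to 1.2). Nfe2l1 rose in this tissue as well, from 56.5, 57.2 and 51.4 to 73.4, 77.0 and 77.1 FPKM (0.46, SE 0.07, adjusted p = 0.000172, limma). Under total-read scaling, which put the median of all genes at -0.143, 5 members were lower and 0 higher, and 2 members were called without implanted cGAMP library 1 or 2. Beside these values, epithelial sums were 893, 644 and 781 FPKM with cGAMP against 894, 989 and 952 with PBS, without overlap, and endothelial sums were 726 to 997 against 633 to 794. Their part in the proteasome values was not tested.

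In normal ECs the changes were small. After cGAMP 7 of 41 members were higher and 2 lower, where 13.7% of all tested genes were higher and 18.2% lower. Those higher were Psma3, Psma7, Psmb2, Psmb7, Psmd3, Psmd12 and Psme4, by log2 changes of 0.21 to 0.41, and the median over the core was 0.08 against -0.045 for all genes. Psma3, an alpha subunit, had the largest rise: 15, 13.9 and 15.9 FPKM with PBS and 20.3, 20 and 20.2 with cGAMP (0.41, SE 0.07, adjusted p = 0.000351, limma). Psme4 went from 13.8, 13.8 and 12.8 to 16.1, 21.5 and 14.5 FPKM (0.32, SE 0.11, adjusted p = 0.0283), with the highest value in cGAMP library 2, and did not pass without that library or any 1 of the 3 PBS libraries (up to 0.143). Psma3, Psma7 and Psmb2 were called higher in normal and implanted ECs. The groups compared share no library, but both tests use 1 estimate of the spread per gene over all 18 libraries. The share of all tested genes called higher in both tissues was not counted. The call of Psma7 in normal ECs was lost in 10 of 28 alternative fits and that of Psmd3 in 9 (adjusted p up to 0.176 and 0.185), and in implanted ECs the calls of Psma7 and Psmb2 were lost under total-read scaling and quantile normalization. Among markers with cGAMP, 2 of 8 endothelial (Tek and Vwf), 2 of 8 epithelial (Csn2 and Krt19) and 1 of 8 fibroblast and mural genes were lower and 0 higher in normal ECs. The endothelial sums were 902 to 966 FPKM against 954 to 1093 with PBS and the epithelial sums 445 to 505 against 452 to 606, and their part in the proteasome values was not tested.

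Of the 6 assembly chaperones 2 fell in normal ECs and 0 rose, with a median of -0.32, where 18.2% of all tested genes were lower. Psmd5 went from 6.51, 6.95 and 6.83 to 4.36, 4.12 and 4.58 FPKM (-0.54, SE 0.11, adjusted p = 0.00217) and Psmg1, a chaperone of the alpha ring, from 6.36, 7.53 and 7.69 to 4.48, 5.69 and 4.72 (-0.46, SE 0.15, adjusted p = 0.026, limma). Both genes were picked among called members without overlap, so the separation of their groups adds no support. Psmg1 did not pass without normal PBS library 2 or 3 or normal cGAMP library 1 or 3 (adjusted p up to 0.0885, limma), nor by voom on recovered reads. Psmd5 was thus lower with cGAMP in normal and in implanted ECs, and in MMTV-PyMT ECs its levels were 5.99, 6.73 and 6.6 FPKM with PBS against 5.03, 4.47 and 5.4 with cGAMP, a change of -0.32 that did not pass. Psme1 was at 34.3, 35.3 and 37.3 against 37.3, 35.9 and 33.1 FPKM and Psme2 at 24.2, 21.8 and 22.6 against 31.5, 28.6 and 24.2 (0.28, SE 0.11, adjusted p = 0.0736, limma). Psmf1 had a change of 0.19 and Psme3 of 0.18, neither past the threshold. Nfe2l1 was at 70.0, 73.1 and 77.7 against 69.4, 67.9 and 71.3 FPKM. The calls of Psma3 and Psmd5 were kept in each of the 28 alternative fits, but not with a limit of 2-fold, which left 0 called members in normal ECs. The count of called members fell from 9 to 3 without normal PBS library 2, to 4 without normal PBS library 3 or normal cGAMP library 1, and to 5 without normal PBS library 1, normal cGAMP library 2, MMTV-PyMT PBS library 3 or MMTV-PyMT cGAMP library 3. Psmb7 and Psmd12 were the least stable, lost without any 1 of 13 and 12 libraries (adjusted p up to 0.137 and 0.195), and Psmb2 did not pass without normal cGAMP library 1 (0.0654, limma).

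**Figure D5:**
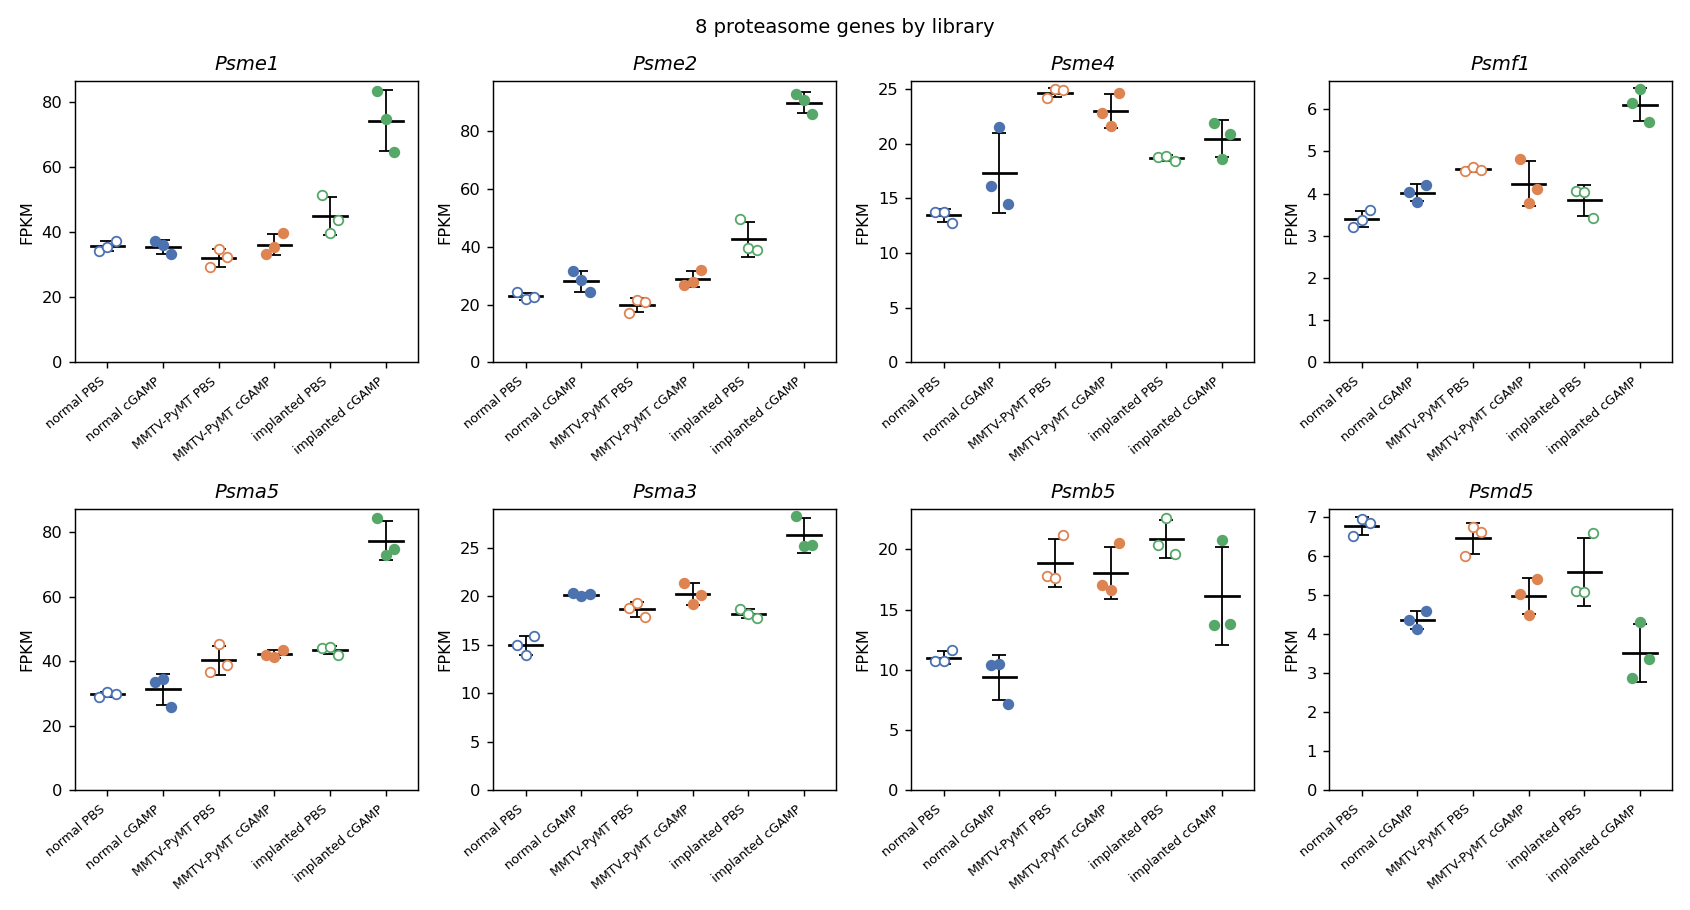
FPKM of 8 members in every library; open points are PBS and filled points cGAMP, and the bar and whiskers are the mean and SD of 3 libraries. Psme1, Psme2, Psmf1 and Psma5 reach their highest levels in implanted cGAMP ECs, Psme4 is highest in MMTV-PyMT PBS ECs, and Psmd5 is lower with cGAMP in normal and implanted ECs.

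The last question was whether the tissues differ in their response, which was tested as the difference between the changes. Between implanted and MMTV-PyMT ECs, 8 of 41 members differed, all with the larger change in implanted ECs, where 7.34% of all tested genes differed in that direction and 3.72% in the other. They were Psma2, Psma3, Psma4, Psma5, Psma6, Psmb2, Psmd11 and Psmf1, so 5 of the 7 alpha subunits, and the median over the alpha class was 0.44 against 0.024 for all genes and -0.03 for the ATPases. Psma5 differed by 0.75 (adjusted p = 0.00294), Psmf1 by 0.65 (adjusted p = 0.00294), and Psme1 and Psme2 by 0.55 each (adjusted p = 0.0262 and 0.0375, limma). The count was 5 without MMTV-PyMT PBS library 2 or 3, MMTV-PyMT cGAMP library 2, or implanted PBS library 2 or 3, and leaving out any 1 of these ended the calls of Psme1 and Psme2, as did leaving out MMTV-PyMT cGAMP library 1 or implanted cGAMP library 1 and, for Psme2, implanted cGAMP library 2 (adjusted p up to 0.0747 and 0.0971). Under total-read scaling 4 members had the larger and 1 the smaller change in implanted ECs, the median of all genes was -0.105, and PA28 did not pass. Psma2 and Psma5 passed in every one of the 28 alternative fits and Psmf1 in the 27 that tested it.

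Between implanted and normal ECs 4 of 41 members differed (Psma2, Psma4, Psma5 and Psmf1), again all larger in implanted ECs, against 12.5% of all tested genes in that direction and 6.09% in the other. The differences were 0.75 for Psma5 (adjusted p = 0.00167), 0.72 for Psme1 (adjusted p = 0.00341) and 0.79 for Psme2 (adjusted p = 0.00309, limma). Without implanted PBS library 3 the count was 2, and Psma2 was among those lost (adjusted p = 0.0562), while Psmf1 (0.37, adjusted p = 0.0498) was lost without any 1 of 15 libraries (up to 0.124). The scaling turned this split: 1 member was larger and 13 smaller in implanted ECs under total-read scaling, with the median of all genes at -0.19, and 1 larger and 8 smaller under quantile normalization. Psma5 alone of the 41 passed as larger under both, and the differences of Psme1 and Psme2 passed under the first and not under the second. Between MMTV-PyMT and normal ECs 0 of 41 members had a larger and 2 a smaller change, against 5.48% and 2.9% of all tested genes. Psmd12, which rose in normal and fell in MMTV-PyMT ECs, differed by -0.55 (adjusted p = 0.00663) and Psmb2 by -0.43 (adjusted p = 0.0456, limma). The call of Psmb2 was lost without any 1 of 13 libraries (adjusted p up to 0.113): normal PBS libraries 1 to 3, normal cGAMP 1 and 2, MMTV-PyMT PBS 2 and 3, MMTV-PyMT cGAMP 2 and 3, implanted PBS 1 to 3 and implanted cGAMP 3. The count was then 1, except without MMTV-PyMT cGAMP library 2. Under total-read scaling and under quantile normalization 4 members had the smaller change. Psme1 and Psme2 had differences of 0.17 and 0.24 there and did not pass. Of the 43 tested members, 23 were called in no tissue after cGAMP, among them all 6 ATPases, Psmb5, Psmb6 and Psme3.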

How the data were processed

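ECs were sorted and sequenced as paired-end libraries with a directional kit, and per the labels and methods the authors used FastQC, STAR 2.7 on mm10 and HTSeq; whether counting used strand is not given in the sources used here. The deposited values are FPKM per gene, and their scaling per library does not follow the recovered reads. A read on 1 kb counts 0.0847 FPKM in normal PBS library 1, which has 10215614 recovered reads. In implanted cGAMP library 1, with 11353828 recovered reads, it counts 0.120 FPKM. Columns of normal ECs carry only treatment and number and were taken as fat pad. Reads were recovered from FPKM steps and exon lengths (99.98% of genes whole in every library, tolerance 0.05 reads).

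Changes were tested with limma 3.58.1 in R 4.3.3 on log2(FPKM + 1), with 1 mean per group over 18 libraries and a trended variance, for the 13983 genes with FPKM of at least 1 in at least 3 libraries (2265 were below). A call is a Benjamini-Hochberg adjusted p under 0.05 with no fold limit. Alternatives were other scalings, filters, a pseudocount of 0.1, voom on recovered reads, a 2-fold limit and each library left out. The 2-fold limit was set on the main fit and is not among the 28 alternative fits. The scripts were tested on simulated data. Members and lists were chosen with earlier results of these data known. Library values are given for PA28, Psmb5 to Psmb7, Psme3, Psme4, Psmf1 and, per comparison, the 2 members with the largest rise and the 2 with the largest fall among called members without overlap. The other genes given by library (Pomp, Nfe2l1 and Ddi2) were chosen after their values were seen. Same-numbered libraries did not deviate together (45 pairs, correlations -0.345 to 0.294, 8 over 0.1), so numbers were not used as a block. The paper reports 3 independent experiments. Which library came from which experiment is not stated, so batch could not be fitted. Psme2, Psmb5, Psmb6 and Psmb7 have near copies in the genome that could take some of their reads.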

Additional observations from a re-analysis of the deposited data

Results flagged for a closer look

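The change with cGAMP differed between tissues for the members below, by limma's test of the difference between the changes (log2, Benjamini-Hochberg adjusted p over all tested genes, 3 libraries per group). Against MMTV-PyMT ECs, implanted ECs had the larger change for the alpha subunits Psma2 (0.57, adjusted p = 0.00426), Psma3 (0.39, adjusted p = 0.0154), Psma4 (0.62, adjusted p = 0.00494), Psma5 (0.75, adjusted p = 0.00294) and Psma6 (0.44, adjusted p = 0.0487). The same held for Psmb2 (0.45, adjusted p = 0.0274), Psmd11 (0.32, adjusted p = 0.0491), Psmf1 (0.65, adjusted p = 0.00294), Psme1 (0.55, adjusted p = 0.0262) and Psme2 (0.55, adjusted p = 0.0375). Psmd11 was lost without any 1 of 15 libraries, Psma6 of 13 and Psmb2 of 7, with adjusted p up to 0.119, 0.119 and 0.0769.

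Against normal ECs, implanted ECs had the larger change for Psma2 (0.41, adjusted p = 0.0196), Psma4 (0.49, adjusted p = 0.0146), Psma5 (0.75, adjusted p = 0.00167), Psme1 (0.72, adjusted p = 0.00341), Psme2 (0.79, adjusted p = 0.00309) and Psmf1 (0.37, adjusted p = 0.0498). Against normal ECs, MMTV-PyMT ECs had the smaller change for Psmb2 (-0.43, adjusted p = 0.0456) and Psmd12 (-0.55, adjusted p = 0.00663). Nfe2l1, which is no member, differed in all 3 pairs of tissues: implanted ECs exceeded MMTV-PyMT ECs by 0.4 (adjusted p = 0.0103) and normal ECs by 0.94 (adjusted p = 1.01e-05), and MMTV-PyMT ECs exceeded normal ECs by 0.54 (adjusted p = 0.00379).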

How the results depend on the processing

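Of 120 called changes of members, 75 were called in every alternative fit that tested them (28 fits, or 27 for 1 change of Psmd9 and 3 of Psmf1, which the filter at a mean of 5 FPKM left out) and 4 turned in direction in any, none of which passed the threshold there; the cause was not tested. In implanted ECs under cGAMP these were Psma6 (-0.05 by total reads, -0.16 by quantiles), Psmb4 (-0.02 and -0.14), Psmd8 (0 and -0.02) and Psmb2 (0 by quantiles), each value below 0 before rounding. Psme1 in normal ECs, not called, went from -0.01 to 0.02 by median centring and 0 by voom on recovered reads, and from -0.05 to 0.04 over the fits that left out a library.

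Counts of called members apart from Psme1 and Psme2 moved over 1.5 times as follows. Total-read scaling gave 5 in MMTV-PyMT ECs under cGAMP (1 as reported), 23 in implanted ECs (13), 19 between the tumours (7), and for the differences in response 5 between implanted and MMTV-PyMT (8), 14 between implanted and normal (4) and 4 between MMTV-PyMT and normal (2). Quantile normalization gave 2 in MMTV-PyMT ECs, and 3, 9 and 4 for the differences in response. In implanted ECs under cGAMP its count of 18 stayed within 1.5 times of 13, but the direction moved. There 5 members were higher and 13 lower, where 12 and 1 were reported. Voom gave 5 for the first and 1 for the last of these. Without the variance trend 5 members were called in normal ECs (9) and 1 for the last difference, which also had 1 with the compared groups alone. With a limit of 2-fold 0 members were called in each of the 9 comparisons (limma; Psme2 alone passed that limit, in implanted ECs under cGAMP and between the tumours under PBS).

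With the replicate block the last difference had 1 and the counts in the order of the comparisons were 7, 1, 13, 34, 31, 7, 6 and 3, within 1.5 times of those reported. Leaving out each library gave 3 to 9 in normal, 1 to 2 in MMTV-PyMT and 11 to 15 in implanted ECs under cGAMP, 31 to 36, 27 to 32 and 5 to 8 between tissues, and 5 to 8, 2 to 5 and 1 to 3 for the differences in response. Psmg4, Psmg1 and Psmb5 rest on the fewest reads (44, 69 and 70 in their lowest library) among the members given by library.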
